A study of Mus musculus with 10 samples.

Results

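The genes described here are 9 members of the MAP kinase phosphatase family: Dusp1, Dusp2, Dusp4, Dusp5, Dusp6, Dusp7, Dusp8, Dusp10 and Dusp16. Each was taken as the row of the deposited gene table whose gene name equals the symbol, and each symbol had 1 row, so that the group is 9 of 56748 listed genes. All 9 passed the filter on low counts that left 18969 genes for testing. RNA-seq libraries came from CD11b+ cells sorted from mouse brain, labelled microglia (5 libraries, 400000 sorted cells each), and from hemi brains, labelled bulk brain and all brain cells (5 libraries). Both groups were from young male C57BL/6 mice with no treatment named in the labels, and all 10 libraries carry the same batch label. Nothing in the labels ties the libraries of a group to separate animals, and p-values therefore measure only the spread between these libraries, which may be technical.

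MAP kinase phosphatases remove phosphate from both the threonine and the tyrosine of the activation loop of ERK, JNK and p38 MAP kinases, which switches the kinase off. Many of them are themselves transcribed in response to the kinases they inactivate and so act as negative feedback. They are usually sorted by location and substrate into inducible nuclear enzymes (Dusp1, Dusp2, Dusp4, Dusp5), cytoplasmic enzymes that prefer ERK (Dusp6, Dusp7) and enzymes that prefer JNK and p38 (Dusp8, Dusp10, Dusp16). In macrophages and microglia, Dusp1 is known as a brake on p38 and JNK signalling and on cytokine output.

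In microglia libraries, 5 of the 9 genes were higher than in bulk brain (Dusp1, Dusp2, Dusp6, Dusp7 and Dusp16) and 4 were lower (Dusp4, Dusp5, Dusp8 and Dusp10), by edgeR's quasi-likelihood test with Benjamini-Hochberg adjustment over all genes tested. The background is high, since 37.2% of all genes tested were called higher and 43.9% lower. For each of the 9 genes the ranges of the groups did not overlap; over all genes tested, 34.2% had every microglia library above every bulk brain library and 40.5% had every one below. Read against that background, the number of calls is no result about the family, and the sizes carry the description. Log2 differences ran between -4.64 for Dusp8 and 5.26 for Dusp1, with a median of 0.89 over the 9 genes against -0.14 over all genes tested. That median is the value of Dusp16, and the next gene below it was Dusp10 at -2.02. It therefore restates the split of 5 higher and 4 lower and is no shift of the family as a whole. Among the 9 genes the direction cut across the classes, with 2 of 4 nuclear enzymes, both cytoplasmic enzymes and 1 of 3 JNK and p38 enzymes higher. In sorted and bulk libraries alike, fewer cells of a type and less RNA per cell cannot be told apart.

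**Figure D1:**
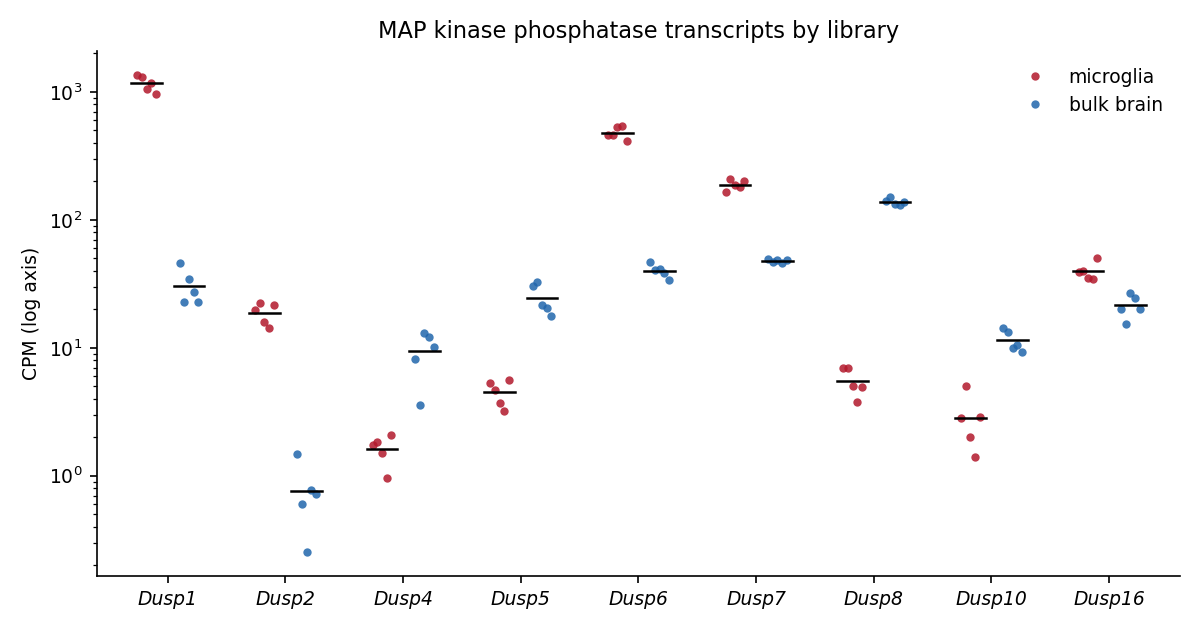
Normalised level (CPM, log axis) of each of the 9 genes in every library, with 5 points for microglia to the left of 5 points for bulk brain and a bar at each mean. In every gene the 2 sets of points are separate, with Dusp1 at 959 to 1365 CPM in microglia, against 22.8 to 45.9 CPM in bulk brain, and Dusp8 at 3.77 to 6.98 CPM in microglia, against 131 to 150 CPM in bulk brain.

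Promoter sequences are shown for 4 genes, chosen because Dusp1 had the largest rise and Dusp8 the largest fall in microglia, and because Dusp6, higher in microglia, and Dusp5, lower in microglia, share a motif. Each window covers the 250 bases before the gene's start in RefSeq on mouse build GRCm38.p6, written 5′ to 3′ on the gene's strand; the counts were made on GRCm39, and coordinates of the windows are of the older build only. The windows are chr17:26508473-26508722 on the minus strand for Dusp1, chr7:142095285-142095534 on the minus strand for Dusp8, chr10:99262981-99263230 on the plus strand for Dusp6 and chr19:53528895-53529144 on the plus strand for Dusp5. Capitals mark the motif matches described after the sequences.
Dusp1: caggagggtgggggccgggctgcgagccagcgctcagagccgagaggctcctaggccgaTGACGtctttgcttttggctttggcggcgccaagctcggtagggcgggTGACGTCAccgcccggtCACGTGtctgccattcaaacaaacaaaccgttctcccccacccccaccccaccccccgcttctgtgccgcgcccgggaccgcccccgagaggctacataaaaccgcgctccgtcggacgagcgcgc
Dusp8: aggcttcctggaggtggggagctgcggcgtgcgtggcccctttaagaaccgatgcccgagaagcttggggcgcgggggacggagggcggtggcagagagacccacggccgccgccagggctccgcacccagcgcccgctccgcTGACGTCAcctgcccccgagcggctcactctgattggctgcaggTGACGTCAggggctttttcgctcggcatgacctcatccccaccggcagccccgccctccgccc
Dusp6: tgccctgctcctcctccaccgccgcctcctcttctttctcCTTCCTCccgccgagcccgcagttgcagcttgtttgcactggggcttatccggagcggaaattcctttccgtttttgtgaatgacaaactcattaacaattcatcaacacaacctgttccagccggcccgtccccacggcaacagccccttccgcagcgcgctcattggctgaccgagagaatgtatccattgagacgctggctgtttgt
Dusp5: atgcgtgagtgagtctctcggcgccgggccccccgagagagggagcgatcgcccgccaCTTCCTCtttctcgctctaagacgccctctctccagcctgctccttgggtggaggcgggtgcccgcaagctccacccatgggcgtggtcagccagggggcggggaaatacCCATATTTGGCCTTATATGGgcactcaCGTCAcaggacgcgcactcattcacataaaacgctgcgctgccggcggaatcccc

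The cyclic AMP response element TGACGTCA, bound by CREB and related factors, occurred once in the Dusp1 window (bases -143 to -136 from the start) and at 2 places in the Dusp8 window (-107 to -100 and -63 to -56). Of all 32817 RefSeq windows of this length, 1.55% held it. That share was not matched for GC. The Dusp1 and Dusp8 windows were 68.4% and 71.6% GC, against a median of 52.4% over all windows. The genes with the largest rise and the largest fall in microglia thus both carry this motif, 1 of 7 searched. Its 5-letter part TGACG, which lies within every full match on both strands and which 17.7% of windows held, occurred on its own in Dusp1 (-191 to -187), Dusp5 (-55 to -51) and Dusp16 (-70 to -66).

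Dusp5 held 2 adjoining CArG boxes (-82 to -73 and -72 to -63), the element bound by serum response factor, which 1.47% of all windows held. The E-box CACGTG (6.02% of windows) occurred in Dusp1 (-126 to -121) and Dusp2 (-109 to -104). The letters GAGGAAG, a core of sites of the myeloid factor PU.1 (10.6% of windows), occurred on the reverse strand in Dusp6 (-210 to -204), where they read CTTCCTC, and in Dusp5 (-192 to -186). The AP-1 motif TGANTCA (6.75% of windows) and the ETS core CCGGAAG (6.90% of windows) occurred in none of the 8 windows, and those of Dusp7 and Dusp10 held none of the 7 motifs searched on both strands. A match is a description of the letters, not a site that was seen to be used, and a missing match says only that the letters are not in the window. The windows of the family ran between 56.4% GC in Dusp6 and 77.2% in Dusp7, against a median of 52.4% over all windows. Of all windows, 37.6% were at or above the GC of Dusp6.

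**Figure D2:**
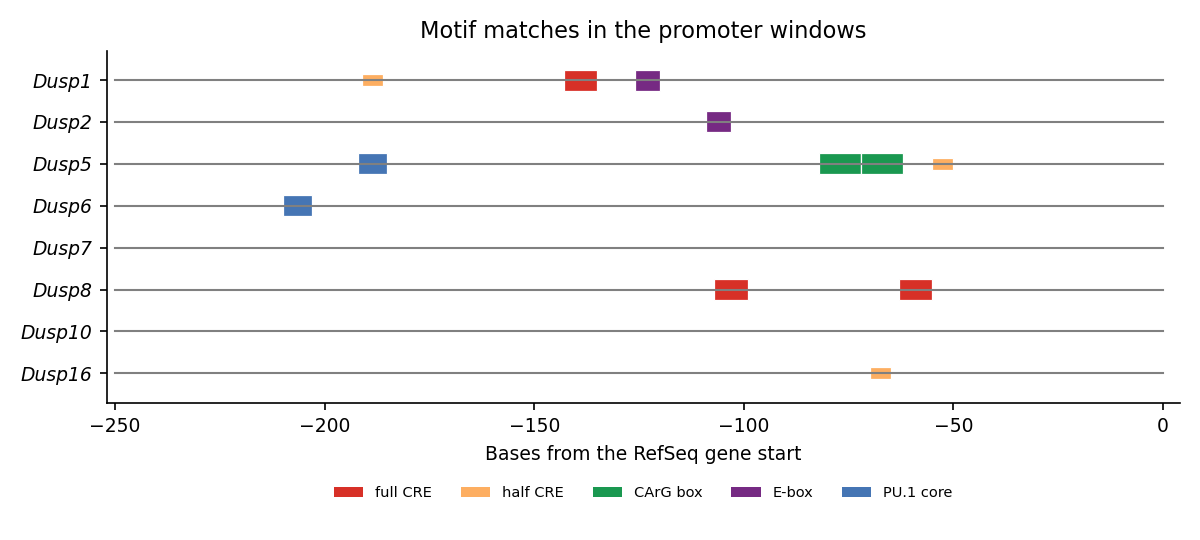
Motif matches in the windows of the 8 genes with a RefSeq entry, by distance in bases from the gene's start; colours mark the motif, and half-height bars mark the 5-letter CRE part where it stands outside a full CRE. Dusp1 and Dusp8 are the windows with a full CRE, Dusp5 the one with CArG boxes, and Dusp7 and Dusp10 are empty.

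Dusp1 (ENSMUSG00000024190, chromosome 17, 26724564 to 26781102 on the minus strand of GRCm39) encodes the immediate early nuclear phosphatase that acts on p38, JNK and ERK. Its normalised level, in TMM-scaled CPM, was 1365, 1313, 1050.5, 1184 and 959 in microglia replicates 1 to 5, against 45.9, 22.8, 34.3, 27.3 and 22.8 in bulk brain replicates 1 to 5. The lowest microglia library was far above the highest bulk brain library. The mean was 1174 ± 171 CPM in microglia, against 30.6 ± 9.77 CPM in bulk brain (SD, n = 5 each), a 38.3-fold difference of means and a log2 difference of 5.26 ± 0.24 (SE; adjusted p = 1.5e-09, edgeR). This was the largest rise of the family, read on 23046 to 34394 counts per microglia library and 792 to 1680 per bulk brain library. The table's interval for Dusp1 overlaps Ergic1 on the opposite strand by 640 bases; Ergic1 had 6988 counts over the 5 microglia libraries and 16066 over the 5 bulk brain libraries, against 148418 and 5166 for Dusp1, and whether counting used strand is not given in the sources used here.

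Dusp2 (ENSMUSG00000027368, chromosome 2, 127178079 to 127180296, plus strand) encodes a nuclear phosphatase known mainly from activated leukocytes. It was measured at 19.8, 22.3, 15.9, 14.3 and 21.5 CPM in microglia, against 1.48, 0.605, 0.254, 0.771 and 0.715 CPM in bulk brain. All 5 microglia libraries were high and all 5 bulk brain libraries were near the low end of what was tested, with 7 to 54 counts each. The mean was 18.7 ± 3.50 CPM in microglia, against 0.764 ± 0.446 CPM in bulk brain (SD, n = 5 each), 24.5-fold apart, with a log2 difference of 4.59 ± 0.36 (SE; adjusted p = 2.1e-07, edgeR). Counting error alone on the smallest of these counts is 37.8%, so that the size of this fold is held less firmly than that of Dusp1.

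Dusp4 (ENSMUSG00000031530, chromosome 8, 35274451 to 35287048, plus strand) encodes a nuclear enzyme close in sequence to Dusp1, and it went the other way. Its level was 1.75, 1.82, 1.501, 0.954 and 2.08 CPM in microglia, against 8.23, 3.55, 13.05, 12.2 and 10.1 CPM in bulk brain. The groups did not overlap, but bulk brain replicate 2 was much nearer to the microglia than the other bulk brain libraries were. The mean fell to 1.62 ± 0.43 CPM in microglia, against 9.44 ± 3.79 CPM in bulk brain (SD, n = 5 each), which is 17.2% of the bulk brain mean, with a log2 difference of -2.54 ± 0.35 (SE; adjusted p = 3.4e-05, edgeR). Without bulk brain replicate 2 the log2 difference was -2.89.

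Dusp5 (ENSMUSG00000034765, chromosome 19, 53517540 to 53530862, plus strand) encodes the nuclear phosphatase that is specific for ERK. Its level was 5.28, 4.65, 3.73, 3.22 and 5.58 CPM in microglia, against 30.3, 32.4, 21.6, 20.3 and 17.8 CPM in bulk brain. Every microglia library was below every bulk brain library, and bulk brain replicates 1 and 2 were the highest. The mean was 4.49 ± 1.00 CPM in microglia, against 24.5 ± 6.47 CPM in bulk brain (SD, n = 5 each), so that microglia held 18.3% of the bulk brain level, with a log2 difference of -2.45 ± 0.22 (SE; adjusted p = 8.3e-07, edgeR).

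The 2 cytoplasmic ERK phosphatases among the 9 genes were both higher in microglia. Dusp6 (ENSMUSG00000019960, chromosome 10, 99099093 to 99103351, plus strand), a feedback inhibitor of growth factor signalling to ERK, was at 457, 461, 531, 538 and 416 CPM in microglia, against 46.6, 40.7, 40.9, 38.5 and 33.9 CPM in bulk brain. The libraries within each group lay close together and the groups were wide apart. The mean was 481 ± 52.2 CPM in microglia, against 40.1 ± 4.62 CPM in bulk brain (SD, n = 5 each), 11.98-fold apart, with a log2 difference of 3.58 ± 0.12 (SE; adjusted p = 1.6e-10, edgeR). Dusp7 (ENSMUSG00000053716, chromosome 9, 106245831 to 106252923, plus strand), which also acts on ERK in the cytoplasm, was at 165, 208, 186, 181 and 202 CPM in microglia, against 49.1, 46.7, 48.8, 45.8 and 48.2 CPM in bulk brain. Dusp7 was the steadiest gene of the family in bulk brain, and all microglia libraries were above it. The mean was 188 ± 17.3 CPM in microglia, against 47.7 ± 1.40 CPM in bulk brain (SD, n = 5 each), 3.95-fold apart, with a log2 difference of 1.98 ± 0.09 (SE; adjusted p = 1.6e-09, edgeR).

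Among the enzymes that prefer JNK and p38, Dusp8 had the largest fall of the family. Dusp8 (ENSMUSG00000037887, chromosome 7, 141633227 to 141649580, minus strand), which inactivates JNK and p38, was at 6.98, 6.97, 5.004, 3.77 and 4.95 CPM in microglia, against 140.0, 150, 132, 131 and 137 CPM in bulk brain. No microglia library came near a bulk brain library. The mean was 5.54 ± 1.40 CPM in microglia, against 138 ± 7.41 CPM in bulk brain (SD, n = 5 each), so that microglia held 4.01% of the bulk brain level, with a log2 difference of -4.64 ± 0.18 (SE; adjusted p = 4.1e-10, edgeR).

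Dusp10 (ENSMUSG00000039384, chromosome 1, 183745499 to 183807833, plus strand), a phosphatase of JNK and p38 with known roles in immune cells, was at 2.82, 4.996, 2.002, 1.39 and 2.87 CPM in microglia, against 14.4, 13.2, 9.96, 10.5 and 9.21 CPM in bulk brain. It was the most variable member in microglia, with a coefficient of variation of 48.5% and a 3.59-fold span between replicates 2 and 4, yet all 5 libraries were below those of bulk brain. The mean was 2.82 ± 1.36 CPM in microglia, against 11.5 ± 2.22 CPM in bulk brain (SD, n = 5 each), 24.6% of the bulk brain level, with a log2 difference of -2.02 ± 0.31 (SE; adjusted p = 7.2e-05, edgeR).

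Dusp16 (ENSMUSG00000030203, chromosome 6, 134692431 to 134769588, minus strand), which dephosphorylates JNK and p38 and shuttles between nucleus and cytoplasm, had the smallest difference. Its level was 39.3, 40.1, 34.99, 34.4 and 50.2 CPM in microglia, against 20.2, 15.4, 26.9, 24.7 and 20.2 CPM in bulk brain. The highest bulk brain library was still below the lowest microglia library. The mean was 39.8 ± 6.32 CPM in microglia, against 21.5 ± 4.45 CPM in bulk brain (SD, n = 5 each), 1.85-fold apart, with a log2 difference of 0.89 ± 0.16 (SE; adjusted p = 0.00033, edgeR). Against a null of a 2-fold change rather than none, the same difference had an adjusted p of 0.67 and was the one member not called.

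Dusp9, the tenth catalytically active enzyme of the family, is classed with the cytoplasmic ERK enzymes. It is not among the 9 genes and did not pass the filter on low counts. It had 2, 0, 8, 0 and 13 counts in microglia, against 16, 7, 8, 30 and 8 counts in bulk brain. With both groups this low, no fold is given.

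To compare members with each other, levels were divided by the table's gene length and are given as CPM per kilobase. In microglia the order was Dusp1 (355 ± 51.7), Dusp6 (154 ± 16.7), Dusp7 (56.1 ± 5.15), Dusp2 (9.36 ± 1.75), Dusp16 (5.10 ± 0.81), Dusp5 (1.82 ± 0.41), Dusp8 (1.14 ± 0.29), Dusp10 (0.926 ± 0.449) and Dusp4 (0.591 ± 0.156; SD, n = 5). The ranges of neighbours were separate down to Dusp16 over Dusp5, and the lowest 4 genes overlapped each with the next. In bulk brain the order was Dusp8 (28.3 ± 1.52), Dusp7 (14.2 ± 0.42), Dusp6 (12.8 ± 1.47), Dusp5 (9.90 ± 2.62), Dusp1 (9.25 ± 2.95), Dusp10 (3.77 ± 0.73), Dusp4 (3.45 ± 1.38), Dusp16 (2.75 ± 0.57) and Dusp2 (0.382 ± 0.223; SD, n = 5). There, Dusp8 stood clear at the top and Dusp2 clear at the bottom, Dusp1 lay above Dusp10, and every other pair of neighbours overlapped.

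The summed level of the 9 genes was 583 ± 52.1 CPM per kilobase in microglia, against 84.9 ± 6.91 in bulk brain (SD, n = 5 each). In microglia, Dusp1 made up 60.6 ± 3.81% of that sum and Dusp6 26.4 ± 3.15%, against 10.8 ± 2.60% and 15.1 ± 0.60% in bulk brain. Dusp8 made up 0.194 ± 0.041% of the sum in microglia, against 33.5 ± 2.70% in bulk brain. In the microglia libraries the sum was thus led by Dusp1, with Dusp6 next. In bulk brain it was spread over several genes, where Dusp7 at 16.8%, Dusp6 at 15.1%, Dusp5 at 11.6% and Dusp1 at 10.8% followed Dusp8. Only the microglia libraries are labelled as sorted, and the part of dissociation and sorting in these shares was not tested.

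By class, the nuclear enzymes held 62.6 ± 3.802% of the sum in microglia, against 26.9 ± 2.95% in bulk brain. The cytoplasmic ERK enzymes held 36.1 ± 3.795% in microglia, against 31.9 ± 0.69% in bulk brain. The JNK and p38 enzymes held 1.24 ± 0.27% in microglia, against 41.2 ± 2.51% in bulk brain, and their summed level was lower in microglia in absolute terms too, at 7.17 ± 1.22 CPM per kilobase, against 34.8 ± 1.59 CPM per kilobase in bulk brain (SD, n = 5 each). With no division by gene length, an alternative added after the data were seen, the JNK and p38 enzymes held 2.54 ± 0.56% in microglia, against 52.9 ± 2.62% in bulk brain. These class sums are descriptions of the members' levels and were given no test.

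**Figure D3:**
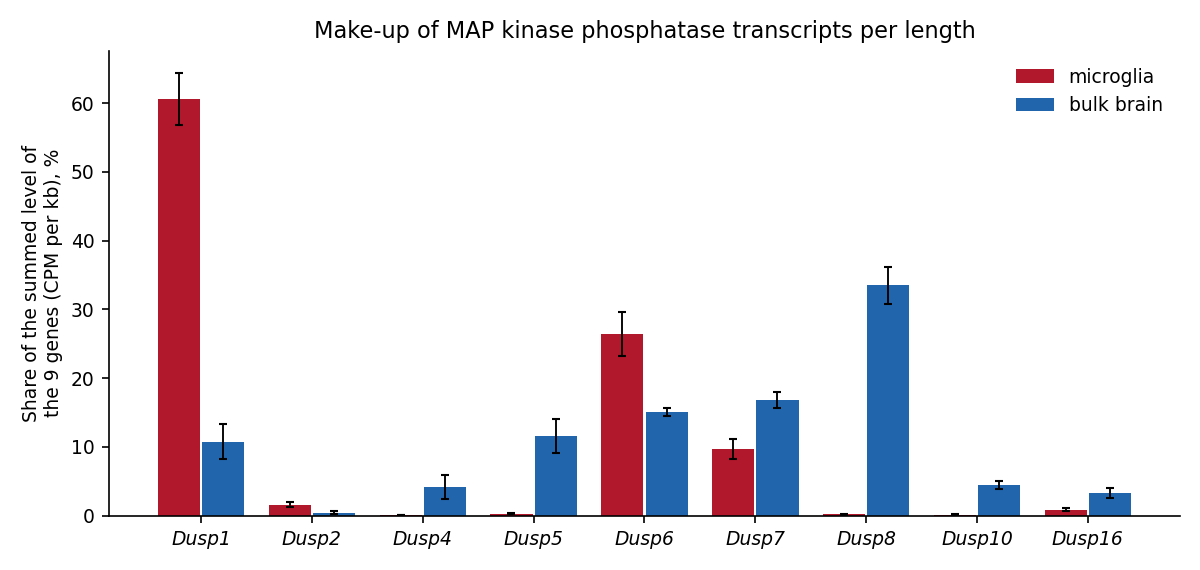
Share of the summed level (CPM per kilobase) of the 9 genes taken by each gene, in percent, with microglia left of bulk brain; bars are means over 5 libraries and error bars are SD. Dusp1 takes 60.6% in microglia, against 10.8% in bulk brain, and Dusp8 takes 0.194% in microglia, against 33.5% in bulk brain.

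Within each class, the balance between close relatives was taken as the ratio of their levels per kilobase. Dusp1 over Dusp4 was 646 ± 236 in microglia, against 3.17 ± 1.67 in bulk brain. Dusp6 over Dusp7 was 2.76 ± 0.44 in microglia (2.21 to 3.18) and 0.901 ± 0.096 in bulk brain (0.753 to 1.02), so that Dusp6 led in every microglia library. Dusp16 over Dusp8 was 4.70 ± 1.26 in microglia, against 0.0982 ± 0.0247 in bulk brain, an exchange of the leading gene of that class. Dusp1 over Dusp2, the nuclear pair that were both higher in microglia, was 38.9 ± 8.49 in microglia, against 32.8 ± 27.4 in bulk brain (SD, n = 5 each), and those ranges overlapped.

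The libraries matched their labels on cell type markers. All 10 microglia markers (Itgam, P2ry12 and Tmem119 among them) were higher in microglia by edgeR, with a summed level of 31889 to 33134 CPM in microglia, against 229 to 254 CPM in bulk brain. All 10 neuron markers, 8 astrocyte markers and 8 oligodendrocyte lineage markers were lower, with the neuron sum at 10.4 to 29.2 CPM in microglia, against 6365 to 7391 CPM in bulk brain, the astrocyte sum at 134 to 168 CPM in microglia, against 3487 to 4532 CPM in bulk brain, and the oligodendrocyte sum at 139 to 219 CPM in microglia, against 4799 to 6697 CPM in bulk brain. The 8 markers of border-associated macrophages, which also carry CD11b, were higher, at 498 to 646 CPM in microglia, against 11.1 to 12.9 CPM in bulk brain. Of 16 neutrophil, monocyte and lymphocyte markers 5 were tested and all 5 were higher; the sum over all 16, untested genes included, was 33.5 to 45.1 CPM in microglia, against 1.21 to 1.81 CPM in bulk brain. Of 9 endothelial and mural markers 8 were lower and Pecam1 was higher, with sums of 73.1 to 112 CPM in microglia, against 371 to 434 CPM in bulk brain. None of these markers was at 0 in all microglia libraries, and Ncr1 was at 0 in all bulk brain libraries. Total counts were 25087489 to 28514509 per microglia library and 25845049 to 34709215 per bulk brain library.

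These marker levels give a scale for the members. Over the 10 microglia markers, the bulk brain level was 0.533% to 2.26% of the microglia level, with a median of 0.697%. For the 5 genes that were higher in microglia, the bulk brain level was 2.61% for Dusp1, 4.08% for Dusp2, 8.35% for Dusp6, 25.3% for Dusp7 and 54.0% for Dusp16. All 5 values lay above the range of the microglia markers. Over the 8 border-associated macrophage markers the bulk brain level was 0.788% to 6.18% of the microglia level, a range that holds Dusp1 and Dusp2. Over the 10 neuron markers, the microglia level was 0.0394% to 0.952% of the bulk brain level, with a median of 0.134%. The 4 genes that were lower in microglia kept 4.01% (Dusp8), 17.2% (Dusp4), 18.3% (Dusp5) and 24.6% (Dusp10) of their bulk brain level. These values lay above the range of the neuron markers. Dusp4, Dusp5 and Dusp10 also lay above the range of the oligodendrocyte lineage markers, and all 4 lay within that of the astrocyte markers. Over the astrocyte markers, the microglia level was 0.227% to 25.7% of the bulk brain level, with a median of 0.548%. Slc1a3 alone set the upper end of that range, with Aldh1l1 next at 2.21%. The microglia level was 0.0607% to 13.4% over the oligodendrocyte lineage markers, with a median of 0.743%. It was at least 5.95%, with a median of 14.1%, over the endothelial and mural markers. The part of RNA from such cells in the members' microglia levels was not tested.

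A list of 27 immediate early and dissociation response genes, which holds none of the 9, was chosen with earlier results of these data known. All 27 were higher in microglia by edgeR, beside 37.2% of all genes tested, with a median log2 difference of 6.25. They summed to 32863 to 38927 CPM in microglia, against 745 to 1145 CPM in bulk brain. The first of them, Fos, was at 2678 ± 401 CPM in microglia, against 26.0 ± 11.8 CPM in bulk brain (SD, n = 5 each). Dusp1 is known as an immediate early gene. Of the inducible nuclear enzymes, Dusp1 and Dusp2 were higher in the same libraries and Dusp4 and Dusp5 were lower. The part of tissue dissociation and sorting in any member's level was not tested, and it cannot be told apart from cell type since only the microglia libraries are labelled as sorted.

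Libraries of a group did not all rank alike over the 9 genes. Microglia replicate 4 had the lowest level of Dusp2, Dusp4, Dusp5, Dusp8, Dusp10 and Dusp16 and the highest of Dusp6. Its summed neuron marker level was also the lowest of the microglia libraries, at 10.4 CPM, while replicate 2, which had the highest Dusp10 level, had the highest neuron sum, at 29.2 CPM. Replicate 4 also had the highest sum of border-associated macrophage markers, at 646 CPM against 498 to 507 CPM in the other microglia libraries, and of neutrophil, monocyte and lymphocyte markers, at 45.1 CPM against 33.5 to 36.7 CPM. The part of other cells' RNA in these levels was not tested. For all 9 genes the span among microglia libraries, in CPM, was smaller than the difference between the group means.

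Bulk brain replicates 1 and 2 stood apart from replicates 3 to 5 over all genes, on a first component that held 83.5% of the variance among bulk brain libraries. They were the highest bulk brain libraries for Dusp5, Dusp8 and Dusp10 and the lowest for Dusp4. Cell type markers moved with the split: replicates 1 and 2 had oligodendrocyte lineage sums of 6042 and 6697 CPM, beside 4799 to 4848 CPM in replicates 3 to 5, and astrocyte sums of 3679 and 3487 CPM, beside 4448 to 4532 CPM. Their immediate early sums were 1145 and 1049 CPM, beside 745 to 863 CPM. The part of these differences in the members' levels was not tested. Set against bulk brain replicates 3 to 5 alone, the log2 difference was -3.02 for Dusp4 and -2.30 for Dusp5. Set against replicates 1 and 2 alone, it was -1.96 for Dusp4 and -2.88 for Dusp5. Every member kept its direction and its call both ways.

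**Figure D4:**
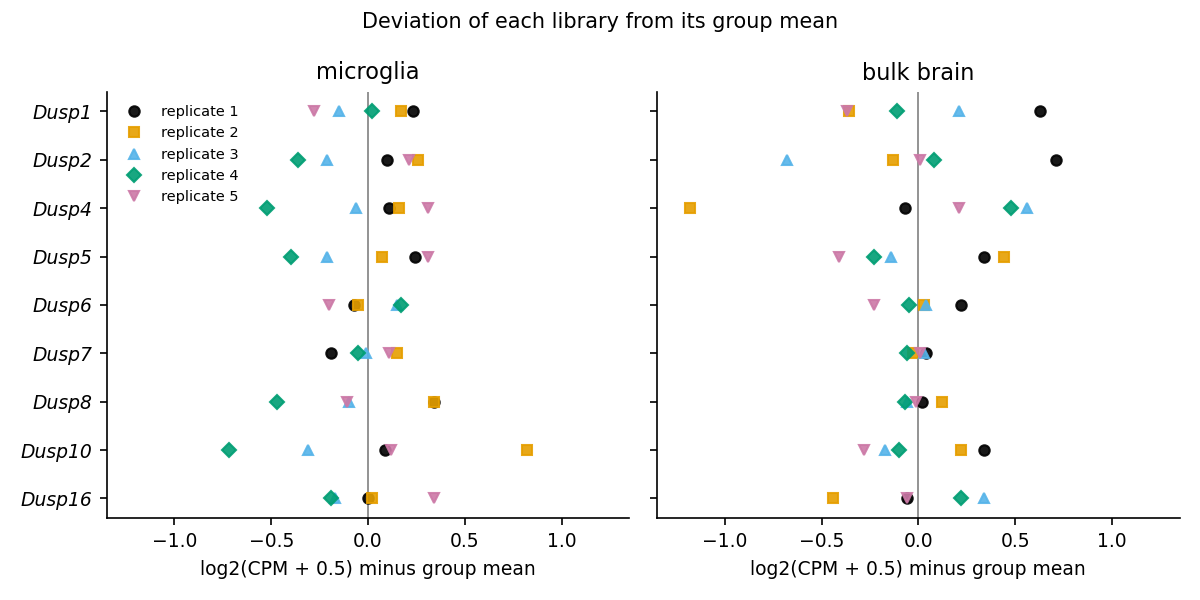
Deviation of each library from its group's mean, in log2(CPM + 0.5), for the 9 genes, with microglia in the left panel and bulk brain in the right; symbols mark the replicate. Microglia replicate 4 is the lowest library for 6 of the 9 genes, and bulk brain replicate 2 is the lowest for Dusp4.

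The genes around the phosphatases in the pathway were taken as 8 lists of 106 genes, of which 102 were tested. Of these 102, 38 were higher and 53 lower in microglia by edgeR, and 11 did not pass, with a median log2 difference of -0.54. The higher genes were 37.3% and the lower genes 52.0% of those tested, beside 37.2% and 43.9% of all genes tested, so that the count of higher genes is at the background. Of 14 MAP kinases, which include the ERK, JNK and p38 substrates, 2 (14.3%) were higher and 11 (78.6%) lower. Mapk14, which encodes p38 alpha, was at 385 ± 6.40 CPM in microglia, against 85.5 ± 3.34 CPM in bulk brain (SD, n = 5 each; log2 difference 2.17 ± 0.08, adjusted p = 1.9e-10, edgeR). Mapk10, which encodes the mainly neuronal JNK, was at 0.331 ± 0.344 CPM in microglia, against 293 ± 57.7 CPM in bulk brain (SD, n = 5 each; log2 difference -9.77 ± 0.55, adjusted p = 1e-08, edgeR). The second MAP kinase that was higher was Mapk7, named after its value was seen, with a log2 difference of 1.00 ± 0.14.

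Upstream, 13 of 22 MAP kinase kinase kinases tested (59.1%) were higher and 5 (22.7%) lower, beside 37.2% and 43.9% of all genes tested. Map3k8, which relays Toll-like receptor signals to ERK in macrophages, had the largest rise (49.5 ± 7.65 CPM in microglia, against 2.201 ± 0.385 CPM in bulk brain; log2 difference 4.49 ± 0.17), and Map3k13, which encodes a kinase of neuronal JNK signalling, the largest fall (0.347 ± 0.138 CPM in microglia, against 38.5 ± 13.9 CPM in bulk brain; -6.77 ± 0.37). Of 7 MAP kinase kinases, 2 (28.6%) were higher and 3 (42.9%) lower. Map2k3, an activator of p38, was at 33.8 ± 1.18 CPM in microglia, against 11.2 ± 1.85 CPM in bulk brain (1.59 ± 0.13), and Map2k4, an activator of JNK and p38, at 57.8 ± 1.48 CPM in microglia, against 185 ± 26.5 CPM in bulk brain (-1.68 ± 0.11). The other gene called higher was Map2k6, named after its value was seen, at 0.48 ± 0.18 with an adjusted p of 0.031 by edgeR, and that call was lost in 13 of 22 other settings, among them leaving out microglia replicate 1 (0.44) or 2 (0.47) or bulk brain replicate 1 (0.27), 2 (0.25), 3 (0.40) or 5 (0.37; adjusted p between 0.054 and 0.24 over these 6 fits, and between 0.0013 and 1.0 over all 22). Of 11 scaffolds, 1 (9.09%) was higher and 8 (72.7%) lower. Among the 8 was Spag9, named after its value was seen (-0.66 ± 0.24, adjusted p = 0.024 by edgeR). Its groups overlapped, and its call was lost in 6 of 22 other settings. Arrb2, a beta-arrestin, was the one higher (508 ± 13.9 CPM in microglia, against 35.7 ± 10.8 CPM in bulk brain; 3.83 ± 0.19), and Ksr2, a scaffold of the RAF to ERK cascade, was at 0.0693 ± 0.155 CPM in microglia, against 71.2 ± 39.4 CPM in bulk brain.

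Downstream, 9 of 11 MAP kinase-activated kinases (81.8%) were higher and 2 (18.2%) lower, beside 37.2% and 43.9% of all genes tested. Among the 9 was Rps6ka5, named after its value was seen (0.41 ± 0.15, adjusted p = 0.021 by edgeR). Its groups overlapped, and its call was lost in 11 of 22 other settings. Rps6ka1, an ERK-activated ribosomal S6 kinase, was at 519 ± 9.17 CPM in microglia, against 32.2 ± 3.75 CPM in bulk brain (log2 difference 4.01 ± 0.11), and Rps6ka6, of the same family, at 0.0631 ± 0.103 CPM in microglia, against 9.30 ± 1.56 CPM in bulk brain. Of 13 other ERK feedback genes tested, 4 (30.8%) were higher and 8 (61.5%) lower. Ier3, an early response gene that sustains ERK activity, was at 73.3 ± 7.35 CPM in microglia, against 6.58 ± 2.64 CPM in bulk brain (3.47 ± 0.25), and Lrig1, an inhibitor of growth factor receptors, at 0.573 ± 0.302 CPM in microglia, against 78.9 ± 6.92 CPM in bulk brain (-7.09 ± 0.30).

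Of 7 tyrosine and serine/threonine phosphatases that act on MAP kinases, 0 (0%) were higher and 6 (85.7%) lower by edgeR (0 higher also by DESeq2). The seventh, Ptpn7, had a log2 difference of -0.09 with an adjusted p of 0.80 by edgeR. No gene of this list was higher at an unadjusted p under 0.05. Ptpn5, a neuronal tyrosine phosphatase of ERK and p38, was at 0.307 ± 0.289 CPM in microglia, against 165 ± 15.6 CPM in bulk brain (SD, n = 5 each; -9.04 ± 0.46), and Ptprr had a fall of the same size within error (-9.02 ± 0.47). Of 17 atypical dual-specificity phosphatases and relatives, 7 (41.2%) were higher and 10 (58.8%) lower, beside 37.2% and 43.9% of all genes tested. Among the 7 was Ssh1, named after its value was seen (0.35 ± 0.11, adjusted p = 0.013 by edgeR). Its call was lost in 11 of 22 other settings. Ssh2, a slingshot phosphatase that acts on cofilin, was at 1276 ± 85.4 CPM in microglia, against 48.5 ± 17.2 CPM in bulk brain (4.72 ± 0.27), and Dusp15, expressed in myelinating cells, at 0.0159 ± 0.0355 CPM in microglia, against 22.3 ± 3.06 CPM in bulk brain. The median log2 difference was -0.97 over the phosphatases that act on MAP kinases. That of the 9 genes, 0.89, is the value of Dusp16 and restates their split in direction, so these medians show no contrast between families. Medians of lists were given no test.

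**Figure D5:**
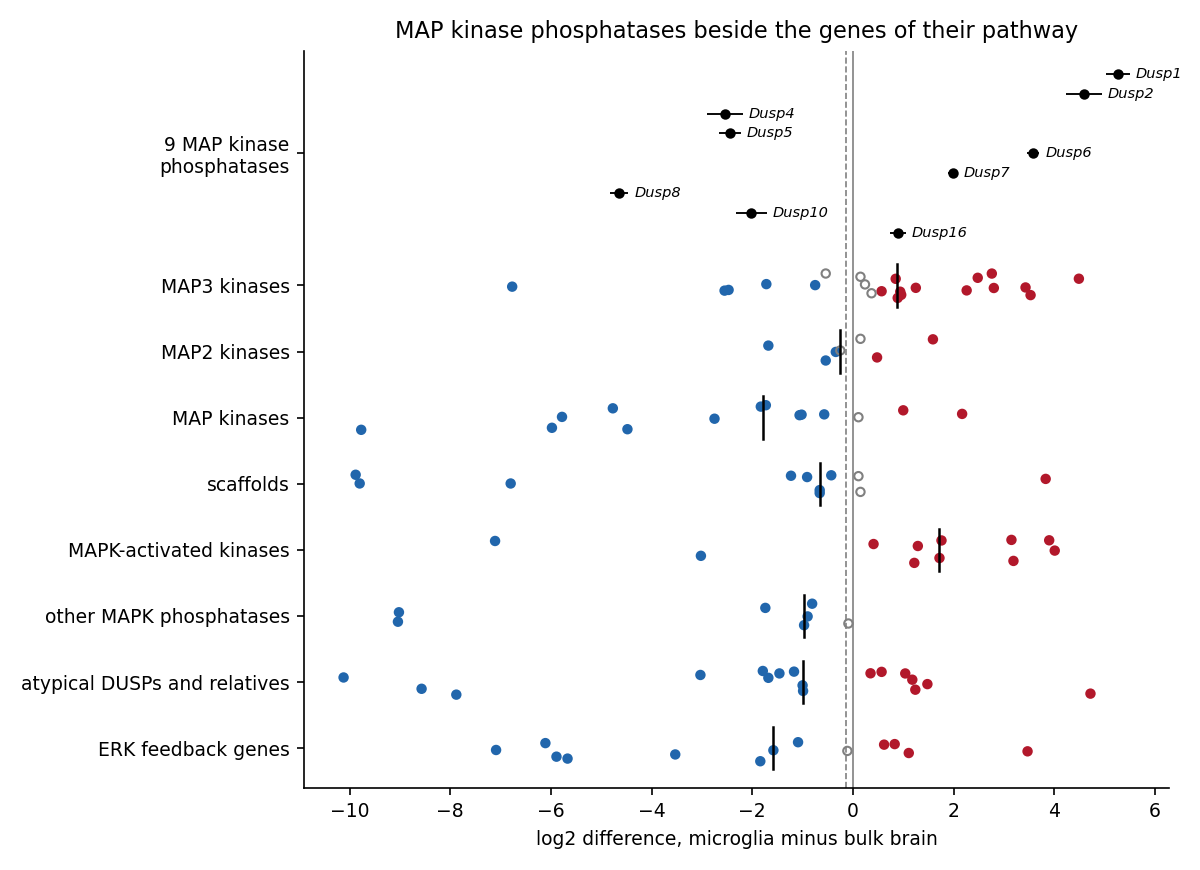
Log2 difference, microglia minus bulk brain, for the 9 genes (black, with SE) and for the genes tested in 8 pathway lists; red and blue points passed the edgeR test, open points did not, vertical bars are list medians and the dashed line is the median of all genes tested, -0.14. The 9 genes run between -4.64 and 5.26, while the MAP kinases have a median of -1.78 and the MAP kinase-activated kinases of 1.72.

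The genes whose pattern over the 10 libraries lay closest to the extreme members were found by the root mean square difference of log2(CPM + 0.5) profiles, each centred on its own mean, among 15020 protein-coding genes. Closest to Dusp1 were Tasl (0.17), an adaptor of endolysosomal Toll-like receptor signalling, Bank1 (0.21), a scaffold known from B cells, and Mlph (0.22), which links a Rab GTPase to myosin. Their levels were lower than that of Dusp1. Tasl was at 32.9 ± 2.28 CPM in microglia, against 0.279 ± 0.215 CPM in bulk brain, Bank1 at 65.8 ± 4.50 CPM in microglia, against 1.01 ± 0.45 CPM in bulk brain, and Mlph at 136 ± 10.2 CPM in microglia, against 3.26 ± 0.57 CPM in bulk brain. Closest to Dusp8 were Dcn (0.10), a matrix proteoglycan, Tgfb3 (0.13), a growth factor, and C77080 (0.14). Dcn was at 0.553 ± 0.328 CPM in microglia, against 23.1 ± 1.73 CPM in bulk brain (SD, n = 5 each), and the 2 other genes were lower still in microglia. The added 0.5 CPM sets much of the closeness wherever a group lies near it, as in microglia for the neighbours of Dusp8 and in bulk brain for Tasl and Bank1.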

How the data were processed

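Polyadenylated RNA was sequenced from 5 microglia and 5 bulk brain samples. The authors deposited raw read counts per gene for all 10 libraries in a single table with gene lengths and other annotation; the submitters' processing notes name CASAVA, HISAT2 2.2.1, featureCounts 2.0 and the build GRCm39. The sources used here give neither the annotation release nor how strand and multi-mapped reads were handled, so reads of overlapping genes cannot be separated. Columns were matched to samples by the library names in the labels, and 0 value columns were left unmatched.

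From the deposited counts, genes were kept with filterByExpr, scaled by TMM and tested with edgeR 4.0.16 (limma 3.58.1, R 4.3.3) by the quasi-likelihood test, with group as the only term, over 18969 genes. P-values were adjusted by Benjamini-Hochberg over all of them, with a threshold of 0.05. SEs were not fitted but taken as the absolute log2 difference over the root of F. CPM use TMM-scaled totals, and CPM per kilobase use the gene length in the table. A count of 3, the limit that 0 counts allow, is 0.115 to 0.125 CPM in a microglia library and 0.082 to 0.109 CPM in a bulk brain library; it covers counting error only, since no molecular identifiers are named in the labels. The fit was tested on simulated data, with both groups drawn from the bulk brain profile and few genes changed. In the real comparison most genes tested were called, so the simulation checks the code and not the fit to these data. DESeq2 1.42.0, other scalings and filters, a test against a 2-fold change, a replicate block, and fits with libraries left out were alternatives. Promoter windows came from RefSeq (GRCm38.p6) by gene symbol, and 8 of the 9 genes matched (all but Dusp4). The genome of the files' build was not used here.

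The 9 genes and all lists were chosen with earlier results of these data known. Of each pathway list, the genes named are those with the largest rise and fall past the threshold that reached 5 CPM or more in the higher group; the 3 closest profiles are named for Dusp1 and Dusp8. Of 212 listed genes, 2 symbols were not in the table.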

Additional observations from a re-analysis of the deposited data

How the results depend on the processing

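Over 22 other fits, 197 of 198 member differences kept their direction and their side of the threshold and 0 reversed. The exception was Dusp16 in the test against a 2-fold change (0.89 on the log2 scale, adjusted p = 0.67, edgeR). That test called 4450 genes higher against 7048, and 21 pathway genes higher against 38. Leaving out each library in turn gave 5.04 to 5.34 for Dusp1, 4.27 to 4.85 for Dusp2, 3.42 to 3.64 for Dusp6, 1.83 to 2.04 for Dusp7 and 0.65 to 0.95 for Dusp16, and -2.89 to -2.38 for Dusp4, -2.64 to -2.33 for Dusp5, -4.77 to -4.51 for Dusp8 and -2.32 to -1.84 for Dusp10. Same-numbered libraries did not deviate together (correlations of deviations between -0.045 and 0.019, with 0 of 5 libraries closest to their own number), so the numbers were not taken as pairs. With the replicate block, the log2 differences were 5.30 for Dusp1 and -4.67 for Dusp8, members stayed at 5 higher and 4 lower, and 6858 genes were higher. Other scalings moved the median of all genes between -0.33 and -0.07, and Dusp1, for example, between 5.07 and 5.33. With no division by gene length, Dusp8 made up 42.7% of the family's sum in bulk brain, against 33.5%, and Dusp16, the longest, 2.11% in microglia, against 0.888%, and 6.65% in bulk brain, against 3.27%; over all settings tried, 12 of 112 shares other than those of Dusp1 in microglia and Dusp8 in bulk brain moved by more than 1 SD. Of 704 counts over lists and settings, 23 differed by over 1.5 times. In the test against a 2-fold change, higher genes were 2 of 7 in the atypical phosphatases, 1 of 2 in the MAP kinases and in the MAP kinase kinases, 8 of 13 in the MAP kinase kinase kinases and 1 of 4 in the ERK feedback genes, and lower genes were 1 of 3 in the MAP kinase kinases, 4 of 8 in the scaffolds and 3 of 6 in the other MAP kinase phosphatases. The loss of Map2k6 left 1 higher MAP kinase kinase in 12 settings. Against bulk brain replicates 1 and 2 alone, 5 MAP kinase kinases were lower rather than 3; 2 scaffolds rather than 1 were higher against either set of bulk brain libraries; and 3 rather than 5 blood cell markers were called with a filter of 1 CPM. Depth limits Dusp2 in bulk brain (7 to 54 counts) and Dusp9.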
